A study of Mus musculus with 8 samples.

Results

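The acetylation of histone H3 at lysine 27 (H3K27ac) was compared between haematopoietic stem cells (HSCs) lacking retinoid X receptors alpha and beta and control HSCs of the mouse. Every peak of the H3K27ac list of each genotype was taken, so 74287 peaks of the control library and 64849 peaks of the deletion library make up the set. These 139136 peaks are part of 867023 peaks in 8 libraries, which also mapped mono- and trimethylation of lysine 4 (H3K4me1 and H3K4me3) in the same 2 genotypes. HSCs were sorted from bone marrow as Lin-cKit+Sca1+CD48-CD150+ cells, and marked chromatin was cut out with antibody-guided nuclease (CUT&RUN). Both groups came from C57BL/6 mice aged about 10 months, and cells of 4 to 5 mice were pooled, with 7500 HSCs per assay. The deletion group, called RXRKO, carried VavCre+ and both genes in the deleted form (RxRa∆/∆ and RxRb∆/∆). The control group, called WT, is described in the study design as carrying the floxed alleles without Cre, whereas its genotype label names VavCre+ and WT, so the Cre status of the control cannot be settled from the labels. Vav drives Cre throughout the blood system, so mature blood cells of RXRKO mice would carry the deletion too. With 1 H3K27ac library per genotype there is no spread between libraries, and every H3K27ac comparison is a description of these 2 libraries without a test.

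Retinoid X receptors are nuclear receptors that bind DNA as dimers, chiefly with partner receptors for retinoic acid, fatty acids, oxysterols, vitamin D and thyroid hormone. Bound dimers recruit coactivators that include histone acetyltransferases, or corepressors that include histone deacetylases. H3K27ac marks active promoters and active enhancers, H3K4me3 marks promoters above all, and H3K4me1 is spread over enhancers and the flanks of promoters. In HSCs these receptors have been tied to self-renewal and quiescence, and the study's title names repression of the MYC pathway as its question.

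The promoter windows of the marker genes fitted the labelled cell type in part. A promoter was the window of 1 kb on either side of a gene start, and a peak touching it by at least 1 bp counted. Over all genes, 56.7% of promoters had H3K27ac in both genotypes, 4.27% in WT only and 1.15% in RXRKO only. Of 12 HSC markers, 8 had H3K27ac at the promoter in both genotypes, Gata2 and Kit had it in WT only, and Hlf and Ly6a in neither. Of 10 granulocyte and monocyte markers, 4 had it in both, Mpo in WT only, and Elane, Ctsg, Ly6g, S100a8 and S100a9 in neither. Of 8 erythroid and megakaryocyte markers, 5 had it in both, Hbb-bt in RXRKO only, and Gata1 and Alas2 in neither. Of 8 lymphocyte markers, 2 had it in both, Rag1 in WT only, and Cd3e, Cd8a, Cd79a and Pax5 were among those with it in neither. Of 5 stromal and endothelial markers, 3 had it in both genotypes, and of 6 markers of tissues outside the blood, 1 did. Markers of mature lineages were thus called in WT only at Mpo and Rag1 and in RXRKO only at Hbb-bt, where the promoter peaks had a −log10 q of at most 3.90. The part of such cells in the results below was not tested. The number of reads is unknown, but the fold and p-value of each peak give the local background of the peak caller. Its commonest value was 4.77 in WT and 4.19 in RXRKO. The depth stand-in and the number of peaks were therefore both higher in WT, and their part in the differences was not tested.

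Promoters that illustrate the outcomes are shown first, as the 300 bases from 250 before to 50 after a gene start in RefSeq's GRCm38 annotation, the build called mm10 in the submitters' notes. Lyrm9 and Olfr90 had the highest qualifying peak among promoters acetylated in WT only and in RXRKO only. To qualify, a promoter had no peak overlapping the other list, and its peak covered at least 50% of the 300 bases. In this choice 1 chromosome was left out, and promoters with higher peaks that did not qualify are named further below. Kit, the receptor for stem cell factor, Gata2, a transcription factor that HSCs depend on, and Pdk4, an inhibitor of pyruvate dehydrogenase and a known target of PPAR-RXR dimers, were chosen after their values were seen. Capitals mark matches to a set of short motifs on either strand. These were GGGCGG, which is known as the GC box, the letters CCAAT of the box of that name, and TGTGGT, which RUNX proteins prefer. Also searched were CACGTG, the E-box of MYC with MAX, the letters AGGTCA of the nuclear receptor half-site, and CCGGAAG, which ETS proteins prefer. The last were TATAAA of the promoter box named after it, AGATAAG as preferred by factors of the Gata family, and TGACTCA as preferred by AP-1. A capital run reads as the reverse complement where the match lies on the other strand.
Lyrm9 (chr11:78826345-78826644, plus strand, WT only): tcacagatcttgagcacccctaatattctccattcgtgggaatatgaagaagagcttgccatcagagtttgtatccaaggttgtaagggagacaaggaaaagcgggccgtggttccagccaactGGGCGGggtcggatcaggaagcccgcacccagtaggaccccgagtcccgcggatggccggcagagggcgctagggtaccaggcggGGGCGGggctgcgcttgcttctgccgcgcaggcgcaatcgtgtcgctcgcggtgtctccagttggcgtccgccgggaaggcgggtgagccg
Olfr90 (chr17:37086187-37086486, minus strand, RXRKO only): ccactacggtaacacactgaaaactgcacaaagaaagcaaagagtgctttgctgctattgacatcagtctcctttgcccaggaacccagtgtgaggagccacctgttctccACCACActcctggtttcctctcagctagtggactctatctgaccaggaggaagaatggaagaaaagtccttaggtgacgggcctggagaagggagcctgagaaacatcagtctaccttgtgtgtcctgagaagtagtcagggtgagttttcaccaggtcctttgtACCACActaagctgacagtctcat
Kit (chr5:75574737-75575036, plus strand, WT only): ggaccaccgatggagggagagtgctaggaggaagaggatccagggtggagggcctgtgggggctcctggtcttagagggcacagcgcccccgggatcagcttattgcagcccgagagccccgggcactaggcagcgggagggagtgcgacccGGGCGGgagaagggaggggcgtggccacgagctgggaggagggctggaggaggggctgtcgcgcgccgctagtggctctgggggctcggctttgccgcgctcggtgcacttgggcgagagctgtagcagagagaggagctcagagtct
Gata2 (chr6:88198414-88198713, plus strand, WT only): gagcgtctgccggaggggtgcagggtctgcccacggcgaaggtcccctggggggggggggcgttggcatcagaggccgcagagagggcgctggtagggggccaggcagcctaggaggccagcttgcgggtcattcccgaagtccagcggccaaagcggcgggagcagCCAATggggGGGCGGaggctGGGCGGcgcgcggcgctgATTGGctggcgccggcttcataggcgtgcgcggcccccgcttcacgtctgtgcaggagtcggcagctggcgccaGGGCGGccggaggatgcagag
Pdk4 (chr6:5496229-5496528, minus strand, both): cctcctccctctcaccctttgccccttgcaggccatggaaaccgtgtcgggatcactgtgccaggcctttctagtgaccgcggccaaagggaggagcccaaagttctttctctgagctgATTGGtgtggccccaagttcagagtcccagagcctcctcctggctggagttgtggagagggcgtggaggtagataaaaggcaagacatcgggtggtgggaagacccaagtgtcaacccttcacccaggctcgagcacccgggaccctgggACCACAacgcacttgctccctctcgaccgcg
The WT peak covered 262 of the 300 bases at Lyrm9, 300 at Kit and 290 at Gata2, and no RXRKO peak touched these promoters. The RXRKO peak covered all 300 bases at Olfr90, an olfactory receptor gene, where no WT peak lay. The CpG ratio (observed over expected CG pairs) was 0.89 at Lyrm9, 0.76 at Gata2, 0.62 at Kit, 0.44 at Pdk4 and 0.11 at Olfr90. None of the 5 windows held AGGTCA in that exact spelling, which 14.6% of all 21045 promoter windows held, and this says only that these letters are not in the windows.

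Most acetylated sites were called in both genotypes, and the sites called in 1 genotype were narrow and low. Of the WT peaks, 19859 overlapped no RXRKO peak (26.7%), and of the RXRKO peaks, 10769 overlapped no WT peak (16.6%). WT peaks covered 47.1 Mb, RXRKO peaks covered 44.6 Mb, and 33.8 Mb were common to both. When the 64849 highest peaks of each list by −log10 q were compared, 21.1% of WT and 20.9% of RXRKO peaks lacked a partner, so the gap between the genotypes was not seen with lists of the same size. With the top 30000 of each list the shares were 21.0% and 21.1%, and with the top 10000 they were 27.02% and 27.04%. When each list was cut into 10 equal bins by −log10 q, WT peaks of the highest bin overlapped the full RXRKO list in 99.9% of cases, falling to 33.8% in the lowest bin. For RXRKO peaks against the full WT list the same shares were 99.83% and 50.5%. The peaks of WT alone had a median width of 318 bp and a median −log10 q of 4.72, against 665 bp and 12.5 for its shared peaks. For RXRKO the peaks called alone had 339 bp and 4.28, and its shared peaks 674 bp and 9.83. Of the peaks without a partner, 12.1% in WT and 16.8% in RXRKO lay within 500 bp of a peak of the other list, and 33.9% and 34.8% lay more than 10 kb away.

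**Figure D1:**
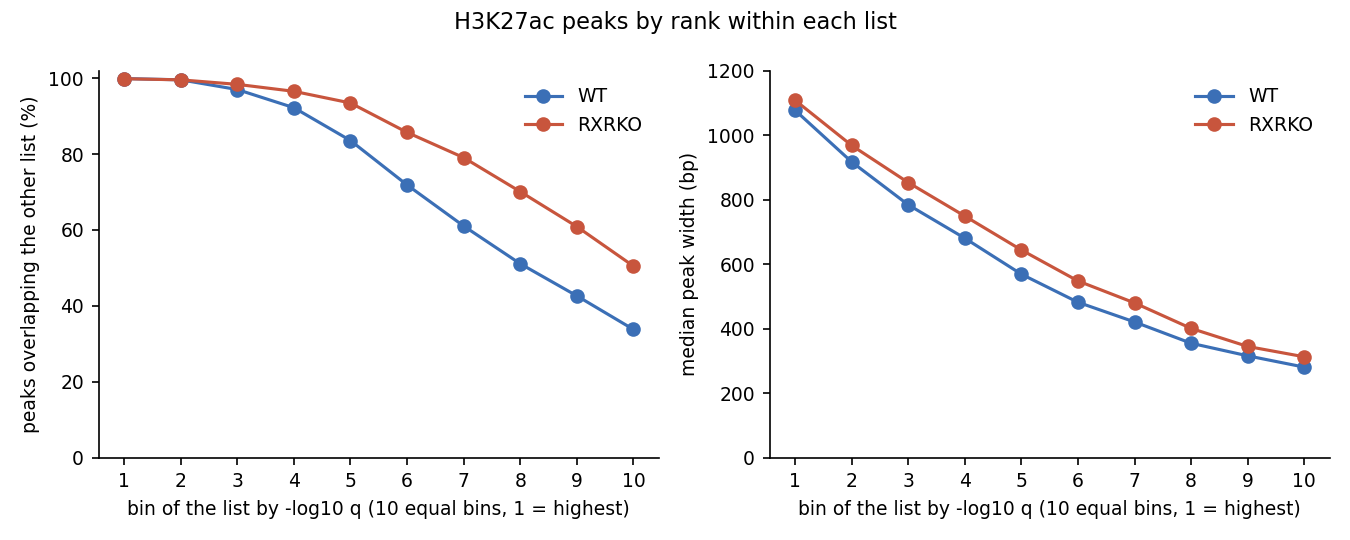
The left panel plots the percent of peaks that overlap the full list of the other genotype, and the right panel the median width in bp, for each of 10 equal bins of the WT and RXRKO H3K27ac lists ordered by −log10 q (1 library each, no error). Both lines on the left start above 99% and end at 33.8% for WT and 50.5% for RXRKO, and widths fall from 1077 and 1108 bp to 281 and 313 bp.

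Promoters held more of the strongest acetylation in WT than in RXRKO, while the full lists divided alike between the classes. In the full lists, promoters held 19.9% of WT and 21.4% of RXRKO peaks. Peaks inside protein-coding genes away from promoters (intragenic) made up 46.1% and 45.3%, and intergenic peaks 33.9% and 33.3%. These classes take up 1.79%, 38.02% and 60.2% of the genome spanned, so promoters were far over their share of the sequence in both lists. With the same number of peaks, promoters held 21.6% of WT and 21.4% of RXRKO peaks. Among the top 10000, promoters held 48.1% of WT peaks and 39.8% of RXRKO peaks, and among the top 3000 they held 54.2% and 44.3%. Intragenic peaks made up the larger part of the difference, with 27.1% of the top 10000 in WT and 32.1% in RXRKO, followed by intergenic peaks with 24.8% and 28.1%. Ranking by the fold of each peak gave promoter shares of 41.9% and 33.5% in the top 10000. The sign of the difference in promoter share thus turned from higher in RXRKO over the full lists to higher in WT among the strongest peaks. Almost all of the top 10000 peaks lay on H3K4me3 called in both genotypes, 98.1% in WT and 94.7% in RXRKO, also where they were not promoter peaks by position.

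The same comparison in the methylation libraries depended on the library. In H3K4me1 replicate 2, promoters held 33.4% of the top 3000 peaks in WT and 24.4% in RXRKO. In H3K4me1 replicate 1 they held 8.37% and 8.40%, and in H3K4me3 92.2% and 92.0%. The H3K4me1 replicate 2 libraries share their run label with the H3K27ac libraries and the replicate 1 libraries do not. Among the H3K27ac and H3K4me1 libraries, the gap in promoter share of the strongest peaks and the run thus moved together. The H3K4me3 libraries are not covered by that statement. The part of the run in the H3K27ac difference was not tested.

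**Figure D2:**
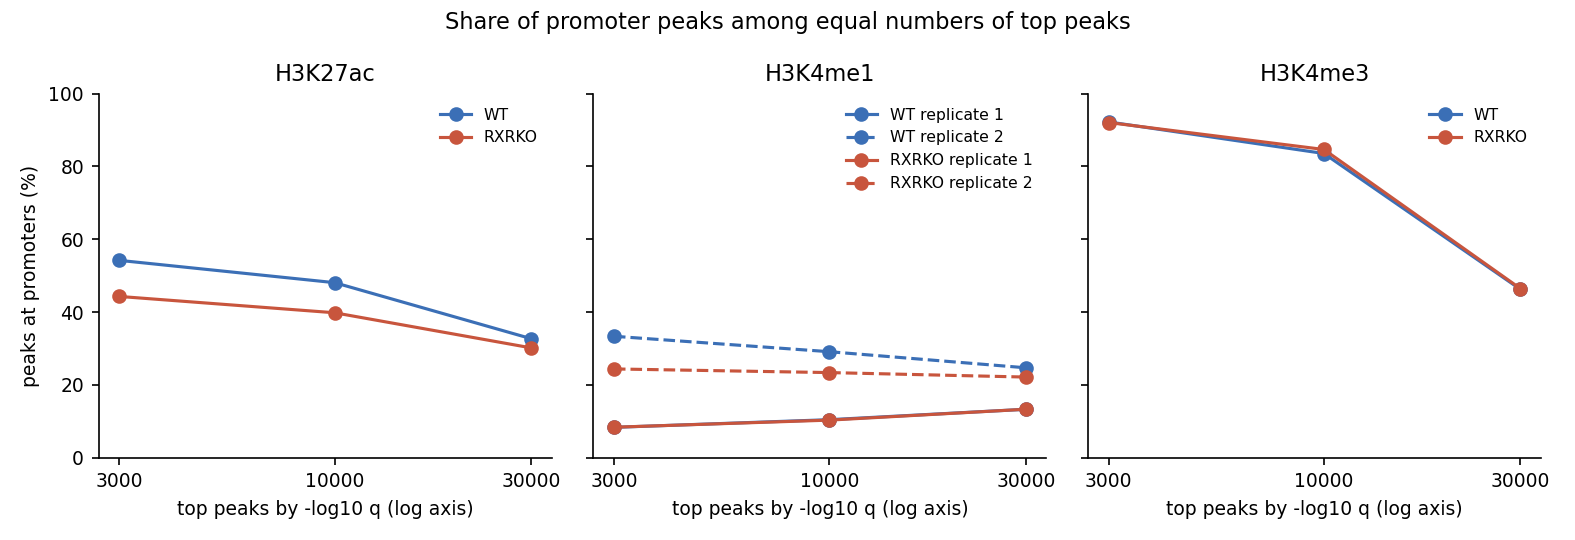
Percent of peaks at promoters among the top 3000, 10000 and 30000 peaks by −log10 q (log axis) for H3K27ac, H3K4me1 and H3K4me3, with WT in blue, RXRKO in red and H3K4me1 replicate 2 dashed (each line 1 library). H3K27ac falls from 54.2% to 32.7% in WT and from 44.3% to 30.2% in RXRKO, H3K4me1 replicate 2 has a like gap, and the lines of H3K4me1 replicate 1 and of H3K4me3 nearly coincide.

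Widths moved apart by class as well. Over 49274 pairs of peaks that overlapped one another and nothing else, the median width was 670 bp in WT and 674 bp in RXRKO. At 11247 promoter pairs the WT peak had a median of 950 bp and the RXRKO peak 907 bp, and the RXRKO peak was the wider in 44.5% and the narrower in 55.2%. At 21635 intragenic pairs the medians were 604 and 617 bp and the RXRKO peak was the wider in 53.1%. At 16392 intergenic pairs they were 628 and 637 bp, with the RXRKO peak wider in 52.1%. Promoter peaks were therefore slightly narrower and distal peaks slightly wider in RXRKO, by medians of 22 bp or less.

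Promoters of 12268 among 21631 genes were acetylated in both genotypes (56.7%). In WT only there were 924 (4.27%), and in RXRKO only 248 (1.15%), which became 723 and 356 with lists of the same size. H3K4me3 was present in both genotypes at 98.7% of promoters acetylated in both, at 81.9% of those acetylated in WT only and at 73.4% of those in RXRKO only. Among promoters acetylated in neither, 16.7% had it. Most promoters that were acetylated in 1 genotype thus carried H3K4me3 in both. Among the top 10000 peaks, 1448 promoters were reached in WT only (6.69%) and 520 in RXRKO only (2.4%).

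The strongest promoter calls of 1 genotype were mainly edge cases. Of the 10 with the highest −log10 q in WT only, 7 had a peak that overlapped an RXRKO peak just outside the window, among them Rdh10, Nsd1, Kdm7a, Podnl1 and Scn11a. Of the 10 in RXRKO only, 8 did, among them Hsd17b1, Gpt, Zscan10, Wdr88, Tff2, Rgn and Uox. The others were Lipo3, Slc34a3 and Cd59b in WT and Olfr90 and Sit1 in RXRKO. Over all promoters such cases were few, since 890 of the WT set (4.11% of all promoters) and 215 of the RXRKO set (0.994%) had peaks that overlapped nothing in the other list. The strongest of that stricter WT set, chosen after their values were seen, were Lipo3 (−log10 q 28.5), Slc34a3, a phosphate transporter (27.05), Cd59b, a complement inhibitor (23.7), Lyrm9 (22.0) and Sos1, an exchange factor that activates RAS (18.3). Gpr35 (18.2), Exoc6 (17.8) and Itga2 (17.8), an integrin of platelets and some HSCs, came next. In RXRKO they were Olfr90 (22.3), Sit1, an adaptor of lymphocyte signalling (18.04), Vmn1r8, a pheromone receptor gene (16.2), and Ntf3, a neurotrophin (13.2). H3K4me3 covered the Lyrm9 peak, the Sos1 peak and the Itga2 peak in full in both genotypes, and it lay at the Olfr90 peak in RXRKO only (586 of 740 bp).

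Away from promoters, 67985 merged regions were acetylated, 39951 of them in both genotypes (58.8%). In WT only there were 17950 (26.4%) and in RXRKO only 10084 (14.8%). With lists of the same size the counts were 12305 and 12673, and among the top 10000 peaks they were 1383 and 2213, so the order of the genotypes turned with the number of peaks compared. Of the regions in both, 57.0% were intragenic, of those in WT only 58.6% and of those in RXRKO only 59.9%. Few strong peaks were missing outright from the other genotype. Among the top 10000 peaks, 14 WT peaks (0.14%) overlapped nothing in the full RXRKO list, and 24 RXRKO peaks (0.24%) overlapped nothing in the full WT list. None of the 14 and 1 of the 24, the Olfr90 promoter, lay at a promoter.

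The element upstream of Pdk4 was among these strong WT peaks. It spans chr6:5508825-5510556, with its middle 13412 bp upstream of the Pdk4 start and in no gene, is 1732 bp wide, and had a fold of 6.07 and a −log10 q of 45.3 in WT. H3K4me1 covered 1732 and 1697 of these bases in the WT libraries and 303 and 284 in the RXRKO libraries. H3K4me3 covered 938 bases in WT and 0 in RXRKO. Both H3K4me1 libraries of WT were high and both of RXRKO low at this site, which was singled out with its values known. Other strong WT peaks lacked that contrast, such as the one nearest to Rpl14, with 740 and 725 bases in WT and 740 and 719 in RXRKO. The Pdk4 promoter printed above had a peak in both genotypes, 1160 bp wide with a −log10 q of 79.1 in WT and 1099 bp with 20.1 in RXRKO.

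Other strong WT peaks without an RXRKO partner lay in Tnpo1 (−log10 q 45.8), a nuclear import receptor, in Cacna1a (39.1), a calcium channel, in Tmem51 (38.8) and in Arhgef3 (34.5), a guanine nucleotide exchange factor. Those outside genes had as nearest start Tpra1 (43.9, 140724 bp away), E030018B13Rik (38.4), Snx5 (37.2), Rpl14 (34.2) and Gramd1b (30.8). In RXRKO the highest peak lacking a WT partner had its middle 2626 bp from the start of A530032D15Rik (−log10 q 47.9), followed by peaks in Eml6 (31.4), a microtubule-associated gene, in Tenm2 (30.9), a teneurin adhesion molecule, in Mtmr10 (29.2), in Jhy (28.0) and in Lgmn (27.5), a lysosomal protease. Mapk10, a stress kinase of neurons, and Clasp2, a microtubule regulator, followed with 27.4 and 26.7, and peaks nearest to Gadd45g (27.5) and Sema6a (26.2) lay outside genes. H3K4me3 was called at 9 of the 14 WT peaks in WT only and at 18 of the 24 RXRKO peaks in RXRKO only. H3K4me1 covered 79.7% and 94.3% of the bases of the 14 WT peaks in the WT libraries, and 53.3% and 54.1% in the RXRKO libraries. It covered 84.4% and 98.2% of the bases of the 24 RXRKO peaks in the RXRKO libraries, and 60.1% and 39.2% in the WT libraries. Over distal regions acetylated in both genotypes, H3K4me1 covered 92.5% and 93.1% of the bases in WT and 92.2% and 94.7% in RXRKO. H3K4me3 was called at 60.0% of those regions in WT and at 75.9% in RXRKO. The H3K4me1 libraries, which had no part in the choice of these peaks, did not overlap between genotypes at either set. With 2 libraries per genotype, this order was not tested and is a description of small sets.

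At the many weak distal regions the methylation difference was small. H3K4me1 was called at 86.1% and 91.6% of the regions acetylated in WT only in the WT libraries, and at 84.4% and 87.6% of them in the RXRKO libraries. At the regions acetylated in RXRKO only, the shares were 83.3% and 81.8% in the WT libraries and 86.6% and 92.0% in the RXRKO libraries. All 4 H3K4me1 libraries had a peak at 79.4% of the regions of WT only and at 75.6% of those of RXRKO only, so most regions acetylated in 1 genotype had H3K4me1 in both. The share at WT-only regions minus the share at RXRKO-only regions was +2.85 and +9.81 percentage points in the WT libraries, with a mean of 6.33 ± 4.93 (SD, n = 2). It was −2.20 and −4.34 points in the RXRKO libraries, with a mean of −3.27 ± 1.51 (SD, n = 2). The groups did not overlap, and the difference of −9.60 points had p = 0.333 in an exact two-sided permutation test, the smallest p that 2 libraries against 2 allow. Within runs the difference was −5.05 points in replicate 1 and −14.2 points in replicate 2. The single H3K4me3 libraries gave +11.6 points in WT and −0.81 in RXRKO.

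**Figure D3:**
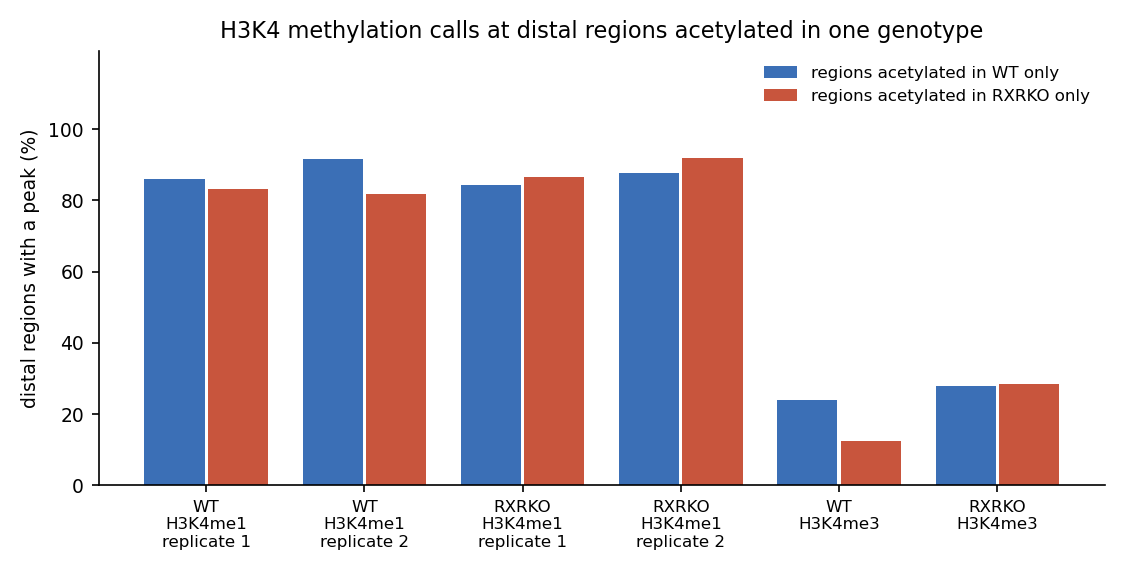
Percent of distal regions acetylated in WT only (blue) or in RXRKO only (red) that overlap a peak of each H3K4me1 and H3K4me3 library (bars are single libraries, the axis starts at 0). Each H3K4me1 library has its higher bar at the regions acetylated in its own genotype, with shares between 81.8% and 92.0%, while H3K4me3 reaches at most 28.6%.

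The acetylated length of a gene was the number of bases under H3K27ac peaks in the gene and 20 kb on each side. It was measured for the 15449 genes with a mean of at least 1000 bp, and differences are RXRKO minus WT on a log2 scale after adding 1000 bp, which understates the change of low genes. The median difference over all genes was −0.07. A length at least 2-fold lower in RXRKO was found for 51 genes (0.33%), and one at least 2-fold higher for 24 genes (0.155%). Among genes with a mean of at least 5000 bp, only Kcnb2 and Atp8b4 passed 2-fold. Kcnb2, a potassium channel subunit, had 1805 bp in WT and 10344 bp in RXRKO (log2 difference 2.02), with 3 peaks in WT and 16 in RXRKO, and its promoter was acetylated in RXRKO only. H3K4me1 in that window came to 12844 and 10151 bp in WT and to 16653 and 36140 bp in RXRKO, so the RXRKO libraries were both above the WT libraries. The highest value came from RXRKO replicate 2, whose H3K4me1 peaks covered 133 Mb in all, against 118 Mb in WT replicate 2. The part of that list size was not tested. The next higher lengths were at Fgf12, a fibroblast growth factor family member (0.79), Nlgn1, a neuronal adhesion molecule (0.78), Agbl4 (0.72), Neo1, a netrin family receptor (0.69), Pam (0.67), Chchd3 (0.66), Actr3b (0.64), Ccny (0.62) and Stau2 (0.62). Both RXRKO libraries were above both WT libraries in H3K4me1 also at Fgf12, Neo1, Pam and Ccny. At Nlgn1, Agbl4, Chchd3, Actr3b and Stau2 the genotypes overlapped. Atp8b4, a phospholipid flippase gene, had 8748 bp in WT and 3547 bp in RXRKO (−1.10). It was followed by Tspan18 (8188 and 3595 bp), Itga9, an integrin subunit (−0.95), P2rx7, an ATP-gated channel (−0.93), Epb41l1 (−0.86), Haao (−0.77), Rbm20 (−0.77), Bin1 (−0.75), Ubash3a (−0.75) and Plekha6 (−0.73). The 3862 longest genes held 21 of the 24 genes past 2-fold upward and 21 of the 51 past it downward. These counts depend on the offset, with 202 lower and 81 higher genes at 200 bp and 0 and 1 at 5000 bp, and lists of the same size gave 27 lower and 32 higher genes, which turns the order of the counts.

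The targets of RXR dimers were shorter in acetylated length in RXRKO almost throughout. Of 32 listed targets 29 were measured, and 26 of them (89.7%) were below 0, against 9804 of all 15449 genes (63.5%). The median was −0.13 against −0.07 for all genes, 21 of the 29 were below the median of all genes, and 1 passed 2-fold. With lists of the same size 23 of 28 were below 0 (82.1%), against 54.2% of all genes, and 21 of 28 were below the median of all genes in that setting. The list was drawn up with earlier results at some of its members known, so its direction is a description.

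Cyp26b1 had the lowest value of all 15449 genes. The enzyme degrades retinoic acid and its gene is induced by retinoic acid receptors, which act with RXR. Its window held 2991 bp in 5 WT peaks and no RXRKO peak, so no fold is given. The strongest of the 5 peaks, chr6:84568713-84569945, had a −log10 q of 9.61 and lay outside genes, and the others had values from 2.39 to 6.17. H3K4me1 in the same window came to 8626 and 8959 bp in WT and to 6164 and 9135 bp in RXRKO, and H3K4me3 to 5237 and 5324 bp. The methylated lengths of the genotypes overlapped there, and the strongest peak was covered by H3K4me1 over its 1233 bases in all 4 libraries. Cyp26b1 had no H3K27ac at its promoter in either genotype.

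Pdk4, next lowest in the list, had 3620 bp in WT and 1448 bp in RXRKO (−0.92, and from −1.21 to −0.24 over the settings tried), of which the upstream element described above makes up the larger part of the difference. Dhrs3, a retinal reductase gene that responds to retinoic acid, had 4674 bp in 9 WT peaks and 2815 bp in 6 RXRKO peaks (−0.57), and all 6 overlapped a WT peak. Mylip, a ligase that degrades the LDL receptor and a target of LXR-RXR dimers, had 4479 and 3049 bp (−0.44). Scd1, a fatty acid desaturase, had 3827 and 2593 bp (−0.43). Fasn, the fatty acid synthase, had 2764 and 1864 bp (−0.39). Abca1, the cholesterol exporter induced by LXR, had 6506 and 5308 bp (−0.25), and its partner Abcg1 5172 and 4685 bp (−0.12). The 3 members above 0 were Acadm, a fatty acid oxidation enzyme (0.10), Arg1, an arginase (0.06), and Cyp24a1, the enzyme that degrades vitamin D (0.05). At promoters, 24 of the 32 were acetylated in both genotypes (75%, against 56.7% of all genes). Rarb, a retinoic acid receptor, was acetylated in WT only and Cyp24a1 in RXRKO only, 3.12% each against 4.27% and 1.15% of all genes.

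**Figure D4:**
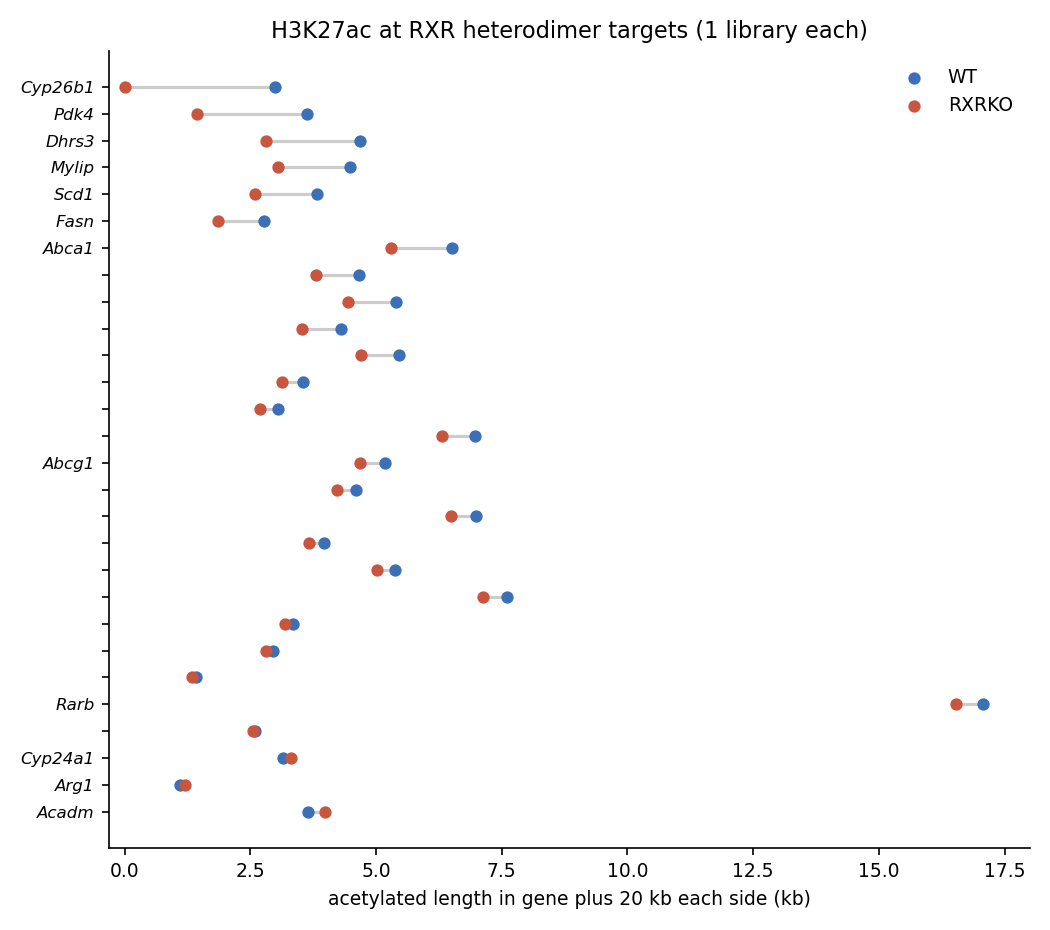
Acetylated length in kb in the gene and 20 kb on each side for 28 measured targets of RXR dimers, WT in blue and RXRKO in red, ordered by log2 difference, with the genes named in the text labelled (1 library each, no error). The RXRKO point lies to the left for 25 of them, farthest at Cyp26b1 (2991 bp against 0) and Pdk4 (3620 against 1448 bp), and to the right for Cyp24a1, Arg1 and Acadm.

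The deleted receptor genes were acetylated in both genotypes. Rxra had 9135 bp in 15 WT peaks and 9253 bp in 13 RXRKO peaks (0.02, and from −0.06 to 0.10 over the settings tried), and the strongest peak over its promoter had a −log10 q of 11.2 in WT and 3.89 in RXRKO. Rxrb had 3832 bp in 7 WT peaks and 5960 bp in 10 RXRKO peaks (0.53), the highest difference among 34 measured nuclear receptor genes. The strongest peak over its promoter had a −log10 q of 19.8 in WT and 13.8 in RXRKO. Of the RXRKO peaks without a WT partner, chr17:34033031-34033514 (484 bp) lay in Rxrb. The others, chr17:34040964-34041857 (894 bp) and chr17:34047677-34048012 (336 bp), lay in other genes beyond its end at 34038403. The difference is thus one of the window and not of the Rxrb gene alone. Peak lengths do not show whether the floxed exons are gone, so they do not check the genotype. Rara, the retinoic acid receptor alpha, had 9114 and 5923 bp (−0.55), Nr5a2 2787 and 1475 bp (−0.61) and Pparg 3987 and 2876 bp (−0.36). Of the 34 measured, 23 were below 0 (67.6%), close to the 63.5% of all genes. Promoters of Rarb and Nr4a3 were acetylated in WT only (5.41% of the list, against 4.27% of all genes). Of 23 coregulators and acetylation enzymes, 22 promoters were acetylated in both genotypes (95.7%, against 56.7% of all genes). The highest difference in length among them was 0.44 at Crebbp, an acetyltransferase of lysine 27.

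Of 35 promoters of HSC identity genes, 6 were acetylated in WT only (17.1%, against 4.27% of all genes) and none in RXRKO only (against 1.15%). The 6 were Gata2, Kit, Cd34, Prdm16, Gfi1b and Hmga2, and 22 others were acetylated in both genotypes (62.9%, against 56.7% of all genes). With lists of the same size the count in WT only was 6 (17.1%, against 3.34% of all genes), and with −log10 q of at least 5 it was 8, or 22.9%, where 1211 of all 21631 promoters were in WT only, and 1 of the list was in RXRKO only. With a fold of at least 4 it was 3 (8.57%, against 9.50% of all genes), so the list did not stand above all genes in that setting. The WT peaks at these promoters were weak, with −log10 q of 11.7 at Kit, 11.6 at Cd34, 6.55 at Prdm16, 5.84 at Hmga2, 5.52 at Gata2 and 5.37 at Gfi1b. All 6 promoters carried H3K4me3 in both genotypes. At Kit the peak chr5:75574646-75575076 lies on the start, and H3K4me3 covered all 431 bases in both genotypes. At Gata2 the WT peaks chr6:88197998-88198270 and chr6:88198424-88198851 had no partner, while the elements at chr6:88184199-88184996 and chr6:88203271-88204180 were acetylated in both genotypes.

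In acetylated length, 22 of 35 members of the HSC identity list were below 0 (62.9%, against 63.5% of all genes). Below the median of all genes were 20 of the 35. The list median was −0.13, against −0.07 for all genes, and with lists of the same size it turned to 0.01, against −0.02. The lowest members were Nkx2-3 (5500 and 3193 bp, −0.63), Hoxb4 (3925 and 2297 bp, −0.58) and Kit (6379 and 4072 bp, −0.54). Gata2 had 2409 and 1404 bp (−0.50, and from −0.87 to −0.17 over the settings tried), and Meis1, a homeobox partner of the HOX proteins, 18790 and 16827 bp (−0.15). The highest were Fgd5, a gene restricted to HSCs in adult marrow (8783 and 11073 bp, 0.30), Slamf1, which encodes CD150 (4876 and 6089 bp, 0.27), and Mecom, a zinc finger regulator of HSCs (34232 and 38028 bp, 0.15). Values on both sides of 0 thus fell within the same functional group.

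Among 32 genes of quiescence and cell cycle braking, 27 promoters were acetylated in both genotypes (84.4%, against 56.7% of all genes). In WT only there were 4 (12.5%, against 4.27% of all genes). Among these 4 were Cdkn1a and Cdkn1c, which encode the cell cycle inhibitors p21 and p57, and Nr4a3, an orphan nuclear receptor. The share in WT only was 9.38% with lists of the same size (against 3.34% of all genes). With a promoter window of 2 kb it was 3.12% (against 4.28%). Cdkn2a was acetylated in RXRKO only (3.12%, against 1.15% of all genes). Cdkn1a had 4820 bp in WT and 2693 bp in RXRKO (−0.66), with 7 and 5 peaks, and its promoter peak had a −log10 q of 5.10. Cdkn1c had 1915 and 974 bp (−0.56), with 6 and 2 peaks, and this difference ran from −0.85 to 0.04 over the settings tried. Tsc1, a brake on mTOR, had 3874 and 2094 bp (−0.66), and Tob1, an antiproliferative gene, 1730 and 784 bp (−0.61). Cited2, a CBP/p300-binding factor that HSCs need, was the highest of the list (2731 and 3586 bp, 0.30). Of 29 measured members 21 were below 0 (72.4%, against 63.5% of all genes), which became 15 of 29 with lists of the same size (51.7%, against 54.2%).

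MYC and its targets had acetylated promoters in both genotypes. All 14 promoters of the MYC family and MAX network were acetylated in both genotypes, and so were all 49 promoters of MYC targets and all 35 of cytosolic ribosomal proteins. Over all genes 56.7% of promoters were acetylated in both, 4.27% in WT only and 1.15% in RXRKO only. Myc had 2338 bp in WT and 1976 bp in RXRKO (−0.17), and its promoter peak had a −log10 q of 18.5 in WT and 20.0 in RXRKO. Mycn had 2000 and 1138 bp (−0.49), Mxd4, a repressor that competes with MYC for MAX, 3303 and 2352 bp (−0.36), and Mga, another MAX partner, 2883 and 3893 bp (0.33). MYC targets ranged from −0.53 at Slc7a5, an amino acid transporter, to 0.20 at Ppat, an enzyme of purine synthesis. Their median of −0.08 was near the −0.07 of all genes. In the top 10000 peaks, 17 MYC target promoters were reached in both genotypes, 6 in WT only and none in RXRKO only, the 6 being Nop58, Nme1, Nme2, Ddx18, Tbrg4 and Ran. Over all genes the same comparison gave 6.69% in WT only and 2.4% in RXRKO only. The direction was thus that of all genes. A larger part of the MYC target promoters was reached in WT at all, 23 of 49, against 5431 of 21631 over all genes. Of those reached in WT, 6 of 23 were in WT only, against 1448 of 5431 over all genes. MYC targets thus did not stand above all genes on that base. Of 35 cell cycle drivers, 33 promoters were acetylated in both (94.3%) and Ccnd2, cyclin D2, in WT only (2.86%). Lengths of these drivers ran from −0.61 at Mcm5, a replication helicase subunit, to 0.45 at Bub1, a mitotic checkpoint kinase.

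**Figure D5:**
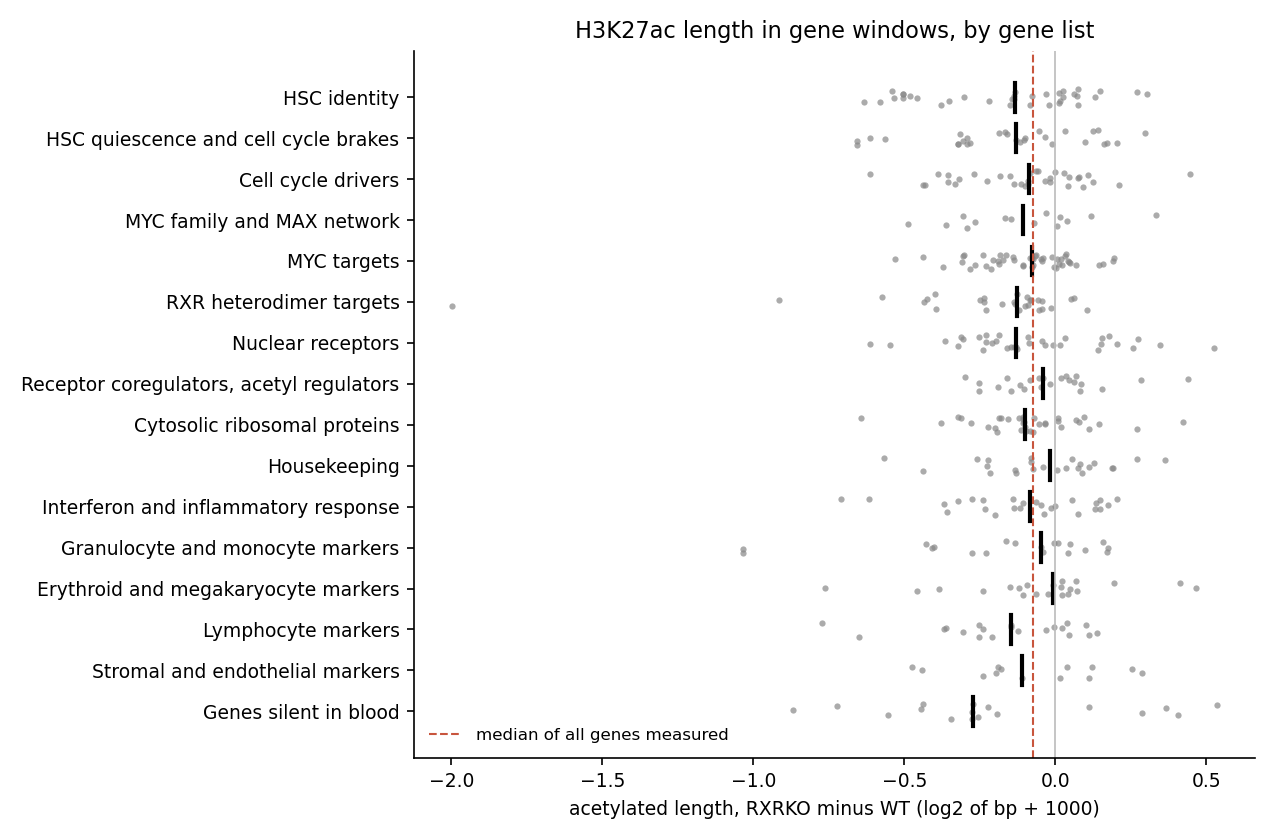
Difference in acetylated length, RXRKO minus WT on the log2 scale of bp + 1000, for each measured member of 16 gene lists (grey points) with the list median (black bars) and the median of all genes (red dashed line, −0.07). Most lists straddle 0, and the lowest point is Cyp26b1 in the list of RXR dimer targets.

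Lineage genes differed in both directions. Of 25 granulocyte and monocyte genes, Mpo, Cebpb, Ccr2 and Cx3cr1 had acetylated promoters in WT only (16%, against 4.27% of all genes) and none in RXRKO only (against 1.15%). With lists of the same size 3 of the 25 did (12%, against 3.34%), and with a fold of at least 4 the shares were 8% and 9.50%. Elane and Prtn3, neighbouring neutrophil protease genes that share a window, had 2271 bp in WT and 597 bp in RXRKO (−1.03). Their window had 6 WT peaks and 2 RXRKO peaks, and the highest had a −log10 q of 7.59. The beta-globin genes went the other way, with 2756 and 3999 bp at Hbb-bt (0.41) and 2165 and 3367 bp at Hbb-bs (0.46), in windows that overlap. H3K4me3 was not called in the Hbb-bt window in WT and covered 1532 bp in RXRKO, whose H3K4me3 list was also the longer (58136 peaks against 47835). Treml1, a platelet receptor whose promoter was acetylated in WT only, had 2530 and 1079 bp (−0.76), and of the lymphocyte genes Zap70, a T cell kinase, had 3366 and 1558 bp (−0.77). Of 27 lymphocyte promoters 5 were acetylated in both genotypes (18.5%, against 56.7% of all genes). Igll1, Rag1 and Il7r were in WT only (11.1%, against 4.27% of all genes). Of 20 stromal and endothelial promoters 12 were in both (60%) and Nes in RXRKO only (5%, against 1.15% of all genes). Among 24 housekeeping genes, 20 promoters were acetylated in both (83.3%, against 56.7% of all genes). Tubb5 was 1 of 2 in WT only (8.33%, against 4.27% of all genes). The median length difference of the housekeeping genes was −0.02. Their lengths ran from −0.57 at Tubb5 to 0.36 at Psmb2, and those of the ribosomal proteins from −0.64 at Rps24 to 0.42 at Rps7, so differences of this size also occurred at genes that all cells use. Of 29 interferon and inflammatory genes with annotation, 27 promoters were acetylated in both (93.1%, against 56.7% of all genes). The lowest lengths of that list were at Irf8 (−0.71), a myeloid transcription factor, and Tnf (−0.62). Of 32 genes taken to be silent in blood, 24 promoters lacked the mark in both genotypes, against 8191 of all 21631. Another 5 had it in both (15.6%, against 56.7% of all genes). In WT only there were 3 (9.38%, against 4.27% of all genes), among them Pdx1 and Actn2. The median of that list was −0.27 over 17 members, and it turned to 0.03 in 1 of the other settings.

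Promoter sequence differed between the classes of acetylated promoters. Over the 300-base windows, the median CpG ratio was 0.76 for 11857 windows acetylated in both genotypes, 0.61 for 914 in WT only, 0.40 for 214 in RXRKO only and 0.21 for 8060 in neither. Kit and Gata2, shown above, lie slightly and clearly above the WT-only median, and Olfr90 lies below the median of windows without the mark. The GC box GGGCGG was in 64.7% of windows acetylated in both, 56.6% in WT only, 44.9% in RXRKO only and 19.0% in neither, against 46.7% of all. The ETS motif CCGGAAG was in 18.4%, 4.81%, 2.34% and 2.78% of these classes, against 11.7% of all. The half-site AGGTCA was in 11.6%, 15.4%, 12.1% and 19.0%, against 14.6% of all, and the E-box CACGTG in 10.1%, 9.30%, 6.07% and 4.55%, against 7.91%. Among the top 10000 peaks, windows reached in WT only had a median CpG ratio of 0.80 and a GC box in 73.1%, and those reached in RXRKO only had 0.67 and 54.1%. Windows of WT only thus had a higher CpG ratio than windows of RXRKO only, both in the full lists and among the strongest peaks. In the full lists they stayed below the windows acetylated in both genotypes (0.61 against 0.76). This describes the windows and not any factor's binding.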

How the data were processed

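HSC chromatin of WT and RXRKO mice was profiled by CUT&RUN. Per the submitters' processing notes, reads were handled with cutadapt 1.7.1, Bowtie2 2.2.5, build mm10 and MACS3. For MACS3 neither a version nor a control track is stated there. The deposited narrowPeak lists were called per library. They hold, per peak, a score (the authors' integer, 10 times −log10 q), a fold ratio, a −log10 p-value and a −log10 q-value, all used as the authors' own values within each list. No read counts were used and depth is unknown, so the local background was solved from each deposited fold and p-value.

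Peaks were read as 1-based intervals on 20 chromosomes, and overlap was at least 1 bp. Gene starts came from RefSeq's GRCm38 promoter table for 17274 genes, from the gene end with more H3K4me3 within 2 kb for 3118, and from both ends for 1239. Classes were promoter (within 1 kb of a start), intragenic and intergenic. Named were the 10 strongest promoters and distal regions of each genotype, the 10 genes with the largest length difference each way (mean of at least 5000 bp), list members with 1-genotype promoters or the 3 largest differences each way, and a set of fixed genes (Rxra, Rxrb, Myc, Gata2, Meis1, Mecom, Cdkn1c and Pdk4). Cyp26b1 details and further names per list were taken after values were seen. The 16 lists (473 genes, Mx1 without annotation) and the peak set itself were chosen with earlier results of these data known. Replicates are separate samples by label only, so their spread may be technical. H3K4me1 replicate numbers follow the run in the file labels and were used as pairs once. Some genes that these rules would name are not reported here. Interval functions were tested on simulated data. Python 3.11.15, numpy 2.4.6, pandas 2.3.3 and scipy 1.17.1 were used.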

Additional observations from a re-analysis of the deposited data

How the results depend on the processing

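Peak lists of 1 library per genotype carry no error, and a peak near the calling threshold can be missing from a list for want of reads, so the many weak peaks of 1 genotype are the least certain values here. Recomputed under other settings, 41 main values were counted as the same and 37 as moved, but the 41 include sizeable changes. With lists of the same size, distal regions in WT only went from 17950 to 12305 and those in RXRKO only from 10084 to 12673. Promoters in RXRKO only went from 248 to 356 in that setting. The differences in promoter, intragenic and intergenic share, none of them tested, changed sign. The WT peaks without a partner, 26.7% in the full lists, were 21.1% with lists of the same size, 21.0% with the top 30000, 32.1% when 50% of a peak had to be covered and 29.2% with a fold of at least 4. The RXRKO peaks without a partner, 16.6%, became 20.9%, 21.1%, 22.9% and 19.4% in the same order, 27.04% with the top 10000 and 14.6% with −log10 q of at least 5. The promoter share, RXRKO minus WT, was 1.44 points in the full lists, −0.23 with lists of the same size, −2.52, −8.26 and −9.90 with the top 30000, 10000 and 3000, −8.38 by fold and −3.45 on H3K4me3 of both genotypes. The last 5 of these settings, and those of the top peaks that follow, were chosen after seeing the data. The intragenic share went from −0.80 to 0.85, 1.74, 5.03 and 6.57 points, and the intergenic share from −0.64 to 0.79, 3.23 and 3.33 with the top 30000, 10000 and 3000. Promoters in WT only numbered 2056 with a fold of at least 4 and 1448 in the top 10000, and in RXRKO only 416 and 520. Distal regions in WT only numbered 7786 with a fold of at least 4, and in RXRKO only 5291 and, with −log10 q of at least 5, 6599. Genes at least 2-fold lower in length numbered 202 with an offset of 200 bp, 0 with 5000 bp, 91 without the filter and 27 with lists of the same size, and genes at least 2-fold higher 81, 1, 50 and 32, so the order of lower and higher turned with lists of the same size. The cause of these shifts was not tested.

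No paired analysis was possible for H3K27ac because each genotype has 1 library. For the H3K4me1 shares, the replicate block (pairing by run) gave −9.60 points with p = 0.5 in an exact paired permutation test, the smallest that 2 pairs allow. Leaving out 1 library each gave −13.1 to −6.12 points.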
